A study of Homo sapiens with 12 samples.

Results

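The CCT complex, also called TRiC, is the chaperonin of the cytosol, and its 8 subunits are encoded by TCP1, CCT2, CCT3, CCT4, CCT5, CCT6A, CCT7 and CCT8 (the α, β, γ, δ, ε, ζ, η and θ subunits in that order). These genes were taken by symbol from a ribosome profiling table of HCT116 cells, a human colorectal carcinoma line. All 8 were found among the 15798 genes listed, and all 8 were among the 10663 genes with enough input reads to be tested. The groups were dishes given 100 nM trametinib, an inhibitor of the kinases MEK1 and MEK2 that activate ERK, and dishes given the solvent DMSO, each for 24 h. From each treatment the study sequenced input, which is cytoplasmic RNA broken at random by alkali, and footprints, which are the stretches of mRNA shielded by ribosomes from RNase I and taken from the monosome fraction of a gradient. There were 3 replicates of each treatment and kind, 12 libraries in all, and all cells received cycloheximide, which halts elongating ribosomes, shortly before lysis. The cells are a single established line, and only reads inside open reading frames were counted.

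CCT is a barrel of 2 stacked rings, and each ring holds 1 copy of every subunit, so an assembled complex uses the 8 proteins in equal number. It encloses newly made proteins and folds them with ATP. Actin and tubulin are its best known clients, and many proteins with WD-repeat propellers also pass through it. Prefoldin hands actin and tubulin chains to CCT, and phosducin-like proteins act as its cofactors. The proportions in which the 8 mRNAs were present and translated are followed here beside the level of each.

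The 8 genes lie on 7 chromosomes, with only CCT4 and CCT7 sharing chromosome 2. In GRCh38 with the Gencode v44 gene models, TCP1 spans chr6:159778498-159789703, CCT2 chr12:69585426-69601570, CCT3 chr1:156308968-156367873 and CCT4 chr2:61868085-61888671. CCT5 spans chr5:10249929-10266389, CCT6A chr7:56051685-56063989, CCT7 chr2:73233420-73253021 and CCT8 chr21:29055805-29073797. TCP1, CCT3, CCT4 and CCT8 are on the minus strand and the others on the plus strand. Their reading frames are of nearly the same length, from 531 codons for CCT6A to 556 for TCP1.

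Start sites were read from RefSeq (GRCh38.p14) to see whether the mRNAs begin as a 5′ terminal oligopyrimidine (5′TOP) mRNA does, with C and then a run of pyrimidines, since 5′TOP mRNAs are a class whose translation follows growth signals. Entries were found for 7 of the 8 genes. CCT6A had none, and the entry of CCT5 began 257 bases downstream of the start of its MANE Select transcript (the reference transcript agreed by Ensembl and RefSeq) and was set aside. For the other 6, the 10 bases before and the 20 bases from the start site are given 5′ to 3′, with capitals for the first base and any pyrimidine run that begins there.
TCP1, chr6:159789583-159789612, minus strand: tgtgttacccAgtagctcctgggacatcgc
CCT2, chr12:69585449-69585478, plus strand: ggcttccttcAgtccgctggtcccgagcac
CCT3, chr1:156338273-156338302, minus strand: gggttgaggtGtaagccctgaggaggcagc
CCT4, chr2:61888637-61888666, minus strand: ggaaggccccCTTCTCCgcctccgcctcct
CCT7, chr2:73234298-73234327, plus strand: tgcgcgaggcAttgtgggttgctgggcggc
CCT8, chr21:29073629-29073658, minus strand: tgtgcgtgctCCTCgcttcctccgcggtct

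Of these, only CCT4 began with C followed by at least 4 further pyrimidines, in a run of 7, while CCT8 had C and a run of 4 in all, and TCP1, CCT2, CCT3 and CCT7 began with a purine. By the same rule 4.7% of 14489 genes with a usable start site had such a start, against 72.7% of 77 genes that the deposited table marks as 5′TOP. None of the 8 subunits carries that mark in the table.

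The promoters of CCT2, which was among the subunits that fell with trametinib, and of CCT3, which was not, are shown over bases 120 to 21 before the start site, with capitals for the letters CCGGAA (the core bound by ETS factors, a family that includes ERK targets), for the CCAAT box, for the GC box GGGCGG and for their reverse complements.
CCT2, chr12:69585339-69585438, plus strand: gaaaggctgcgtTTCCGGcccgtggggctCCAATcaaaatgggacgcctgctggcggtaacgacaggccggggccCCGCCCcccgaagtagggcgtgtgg
CCT3, chr1:156338313-156338412, minus strand: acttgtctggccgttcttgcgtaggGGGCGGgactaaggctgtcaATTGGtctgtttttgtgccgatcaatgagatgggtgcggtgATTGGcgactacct

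Over the whole 300-base window (250 before and 50 from the start), on both strands, CCGGAA occurred in 1 of the 6 subunits, CCT2, which held it at positions -108 and -14, and in 17.3% of all 35116 promoter entries. TCP1, CCT4, CCT7 and CCT8, which also fell with trametinib, did not hold it, and a link of these letters with the fall was not tested. CCAAT occurred in 4 of 6 (TCP1, CCT2, CCT3 and CCT8) and in 34.6% of all entries. GGGCGG occurred in 5 of 6, with CCT4 the exception, and in 45% of all. The E-box letters CACGTG were in 0 of 6 and in 7.26% of all, and the heat shock element core GAANNTTC was in TCP1 alone and in 6.77% of all. These are matches of letters in a window only. The 6 subunits gave 1 entry each near the MANE Select start, whereas all entries include further entries of the same genes and starts away from it.

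Counts inside reading frames summed to between 2276693 and 2845568 per input library and to between 10127477 and 19181588 per footprint library. Single subunits were read deeply, with 630 to 3482 counts per input library and 5724 to 28335 per footprint library. The libraries behaved as labelled for the drug: all 10 listed genes of ERK pathway output were lower in trametinib input, beside 16.7% of all tested genes. DUSP6 was at a log2 change of -7.63. Of 7 epithelial markers, EPCAM, CDH1, KRT8, KRT18 and KRT19 were well expressed, while VIL1 and CDX1 were at or near 0. Of those expressed, 3 were higher in trametinib input, beside 15.4% of all tested genes. DMSO footprint library 1 stood apart from the other DMSO footprint libraries, with a chi-square per degree of freedom of 65.1 and 129 against them, where DMSO libraries 2 and 3 gave 26.3 against each other and the 3 trametinib footprint pairs 6.18 to 11.6. For every one of the 8 subunits this library was the lowest of the 3 DMSO footprint libraries and library 3 the highest, an order found for 25% of all tested genes. The footprint results of the 8 subunits are therefore also given without library 1 and, where it moves them further, without library 3.

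The first comparison asked how the 8 mRNAs changed with MEK inhibition. In input, 7 of the 8 subunits fell with trametinib, to between 55.9% (CCT5) and 68.7% (CCT8) of DMSO, and the remaining one, CCT3, was at 106% of DMSO. Among all tested genes 16.7% were called lower (edgeR quasi-likelihood test, Benjamini-Hochberg adjusted p under 0.05). The median change of the 8 was -0.69 on the log2 scale against -0.0014 for all tested genes. In these bulk libraries fewer cells with the mRNA and less mRNA per cell cannot be told apart.

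TCP1, after which the ring complex TRiC is named, was read at 672, 920 and 783 CPM (counts scaled to library size with trimmed means of M values, TMM, over the 12 libraries) in DMSO input and at 436, 443 and 506 in trametinib input. The groups did not overlap, and the log2 change was -0.77 (SE 0.15, adjusted p = 0.0021, edgeR). CCT5 stood at 494, 585 and 495 CPM in DMSO and at 306, 297 and 268 in trametinib. Its log2 change of -0.84 (SE 0.14, adjusted p = 6.4e-04, edgeR) differed from that of TCP1 by less than its SE.

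CCT2, whose protein contacts its own copy in the opposite ring, was at 485, 562 and 428 CPM in DMSO and at 291, 334 and 265 in trametinib. CCT6A, whose protein makes the other contact of that kind, was at 720, 842 and 727 against 464, 520 and 449. Both pairs of groups were apart, with log2 changes of -0.72 (SE 0.15, adjusted p = 0.0034, edgeR) and -0.66 (SE 0.14, adjusted p = 0.0028, edgeR).

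CCT4 read 628, 745 and 652 CPM in DMSO and 412, 388 and 422 in trametinib. CCT7 read 786, 790 and 934 against 504, 536 and 538. CCT8 read 787, 907 and 779 against 535, 575 and 575. All 3 fell without overlap, with log2 changes of -0.72 (SE 0.14, adjusted p = 0.0016), -0.66 (SE 0.14, adjusted p = 0.0028) and -0.54 (SE 0.13, adjusted p = 0.0080), all from edgeR.

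CCT3 was the exception. Its input level was 905, 1228 and 1246 CPM in DMSO and 1190, 1247 and 1107 in trametinib, so the groups overlapped and the trametinib libraries lay inside or at the upper end of the DMSO range. The log2 change was 0.08 (SE 0.15, adjusted p = 0.72, edgeR), with a 95% interval from -0.22 to 0.38 that leaves out the change of each of the other 7. Without DMSO input replicate 1, the lowest of its group, the estimate was -0.055. In all, 7 of the 8 subunits had every trametinib input library below every DMSO input library, an arrangement seen in 23.6% of tested genes.

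**Figure D1:**
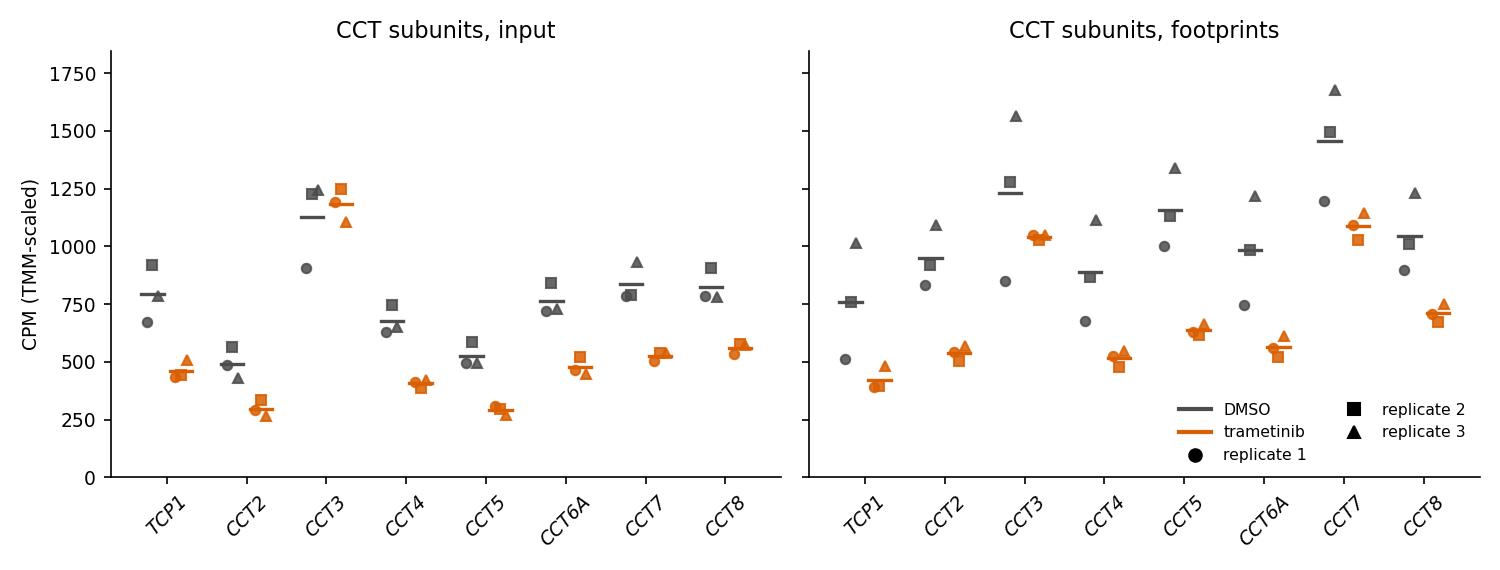
TMM-scaled CPM (vertical axis, linear from 0) of the 8 CCT subunits in the 6 input libraries (left) and 6 footprint libraries (right), with a symbol for each replicate number and a bar at each group mean (n = 3). In input the 3 trametinib libraries sit below the 3 DMSO libraries for every subunit but CCT3, and in DMSO footprints replicate 1 is lowest and replicate 3 highest for all 8.

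The second comparison asked the same of the footprints. Again 7 of 8 subunits fell, with CCT3 short of the threshold, and the median change of the 8 was -0.86 on the log2 scale against -0.013 for all tested genes, of which 25.6% were called lower. In 7 of 8 the groups did not overlap, as in 26.8% of tested genes. Without DMSO footprint library 1, all 8 were called lower, beside 30.5% of tested genes, and the median change was -0.98. Without DMSO footprint library 3 it was -0.65, and 6 of 8 were called lower, beside 23.5% of tested genes.

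TCP1 footprints were at 511, 760 and 1012 CPM in DMSO and at 393, 393 and 483 in trametinib. DMSO library 1 lay close above the trametinib libraries while library 3 was far above them, and the log2 change was -0.91 (SE 0.22, adjusted p = 0.0091, edgeR). CCT5 footprints were at 1000, 1131 and 1338 CPM in DMSO and at 630, 615 and 662 in trametinib. Its change was -0.93 (SE 0.13, adjusted p = 5.5e-04, edgeR). Without DMSO library 1 the estimates were -1.13 for TCP1 and -1.02 for CCT5, and without library 3 they were -0.65 and -0.81.

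CCT2 stood at 834, 919 and 1092 CPM in DMSO footprints and at 540, 505 and 569 in trametinib footprints, a log2 change of -0.88 (SE 0.13, adjusted p = 6.6e-04, edgeR). CCT6A stood at 746, 983 and 1220 against 558, 520 and 612, a change of -0.87 (SE 0.18, adjusted p = 0.0035, edgeR). CCT4 stood at 679, 866 and 1116 against 524, 475 and 546, a change of -0.85 (SE 0.17, adjusted p = 0.0038, edgeR). In these genes the DMSO libraries spread widely and the trametinib libraries lay together below them. Without DMSO library 1 the changes were -0.96 for CCT2, -1.03 for CCT6A and -1.004 for CCT4, and without library 3 they were -0.77, -0.68 and -0.65, all still called.

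CCT8 footprints were at 898, 1011 and 1229 CPM in DMSO and at 707, 674 and 752 in trametinib, and fell by 0.62 on the log2 scale (SE 0.14, adjusted p = 0.0054, edgeR). Without DMSO library 1 it was at -0.72 and without library 3 at -0.49. CCT7, which led the footprints per codon, had 1198, 1496 and 1679 CPM in DMSO and 1092, 1027 and 1144 in trametinib. Its change was -0.49 (SE 0.14, adjusted p = 0.021, edgeR), and this call was lost with library totals as scaling (-0.31, adjusted p = 0.11) and on leaving out any 1 footprint library other than DMSO library 1 (adjusted p from 0.051 to 0.092).

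CCT3 footprints were at 849, 1278 and 1563 CPM in DMSO and at 1049, 1029 and 1049 in trametinib. The trametinib libraries fell within the DMSO range, and the log2 change was -0.30 (SE 0.20, adjusted p = 0.24, edgeR). Without DMSO library 1 the change was -0.51 (adjusted p = 0.0016, edgeR), smaller than that of any other subunit in the same fit, where the next, CCT7, was at -0.61. Without DMSO library 3 it was -0.092 (adjusted p = 0.70, edgeR), so that the size and the call of this change rest on which DMSO libraries are used.

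**Figure D2:**
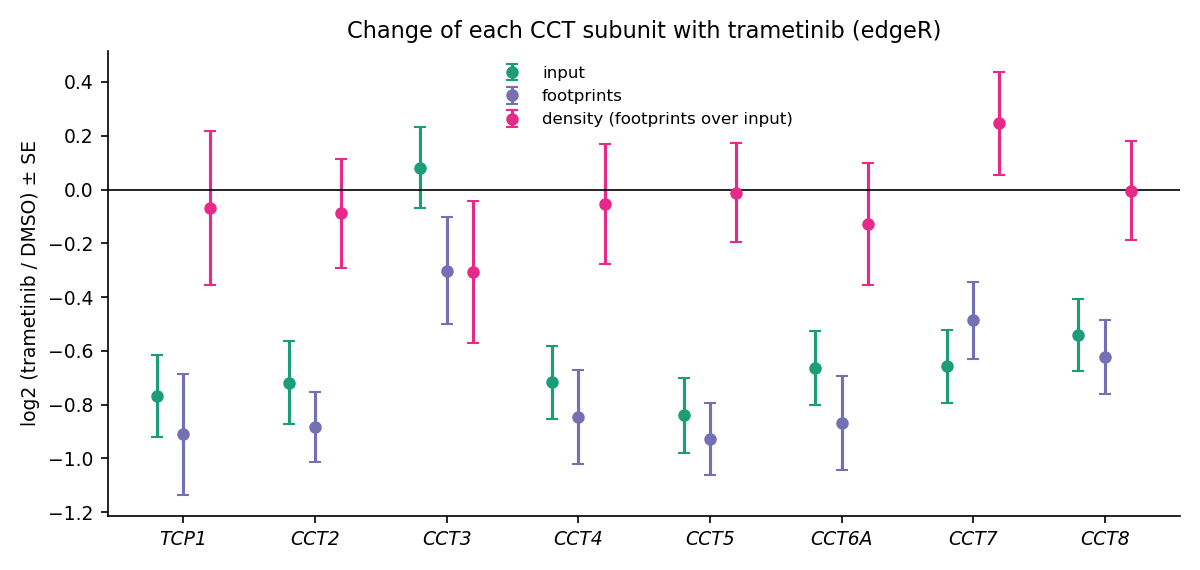
Log2 change with trametinib over DMSO (vertical axis, points ± SE) of each CCT subunit in input, in footprints and in ribosome density, from the edgeR fits. Input and footprint points lie between -0.49 and -0.93 for 7 subunits, CCT3 is at 0.08 in input and -0.30 in footprints, and the density points lie around 0.

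The profiling experiment asked which mRNAs changed in translation beyond their change in amount. Ribosome density, the change in footprints relative to that in input (an interaction of kind and treatment over the 12 libraries), was not detectably altered for any subunit. By edgeR 0 of 8 passed the threshold, 0 of 8 had an unadjusted p under 0.05, and DESeq2 also called 0. Among all tested genes 0.816% were called lower in density and 0.0938% higher. The 8 estimates ran from -0.31 (CCT3) to 0.25 (CCT7) on the log2 scale, with a median of -0.06 against 0.07 for all tested genes. The fits could not show small changes, because the SE was 0.18 to 0.29 and the 95% intervals together covered -0.82 to 0.62. These estimates, like the input and footprint changes above, are relative to all mRNAs, since scaling hides a change common to them. In HCT116 cells at this dose and time the study reports a fall in overall protein synthesis, measured from the share of ribosomes in polysomes. An absolute change in the translation of the subunits cannot be read from these counts.

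CCT3 had a density change of -0.31 (SE 0.26, 95% interval -0.82 to 0.21, adjusted p = 0.84, edgeR). CCT7 had one of 0.25 (SE 0.19, 95% interval -0.13 to 0.62, adjusted p = 0.81, edgeR). The other 6 lay between -0.13 (CCT6A) and -0.0036 (CCT8). The signs of TCP1, CCT2, CCT4, CCT5, CCT6A and CCT8 turned under at least 1 other scaling or set of libraries, whereas CCT3 stayed below 0 and CCT7 above 0 under all 21 alternatives. Their size moved, with CCT3 between -0.52 (without DMSO footprint library 1) and -0.097 (without library 3) and CCT7 between 0.12 and 0.36 in the same fits. Without both libraries of DMSO dish 1, 0 of 8 passed and the median was -0.19.

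The proportions of the 8 subunits were then compared within each library, which needs no scaling between libraries. Counts per codon of each gene were expressed as a share of the sum over the 8, so that an even mixture would give 12.5% each. In DMSO input CCT3 held the largest share, 18.5% ± 2.0 (SD, n = 3), followed by CCT7 (13.9%), CCT8 (13.5%), CCT6A (12.9%) and TCP1 (12.8%), neighbours whose ranges overlapped. CCT4 followed at 11.3%, and CCT5 (8.7%) and CCT2 (8.3%) were lowest, the highest of the 8 being 2.28 times the lowest on average.

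The share of CCT3 in input was 16.4, 18.6 and 20.5% in DMSO and 28.7, 28.6 and 26.7% in trametinib, a mean difference of 9.47 percentage points. The groups did not overlap, and an exact two-sided permutation test over the libraries gave p = 0.1, the smallest value that 3 against 3 libraries allow in 20 arrangements. TCP1 went from 12.8 to 10.7%, CCT6A from 12.9 to 11.6%, CCT4 from 11.3 to 9.77% and CCT5 from 8.73 to 6.94%, all without overlap between the groups. CCT7 (13.9 and 12.5%), CCT8 (13.5 and 13.2%) and CCT2 (8.28 and 7.15%) had overlapping ranges. The highest subunit then exceeded the lowest 4.09 times.

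Footprints were distributed in another order. In DMSO footprints CCT7 led with 17.3% ± 0.81 (SD, n = 3), CCT3 held 14.3% ± 1.5, CCT5 13.8% and CCT8 12.3%. CCT6A, CCT2 and CCT4 followed with 11.8, 11.5 and 10.5%, and TCP1 was lowest at 8.6% ± 1.1. In DMSO cells the footprint share exceeded the input share by 5.08 points for CCT5, 3.35 for CCT7 and 3.19 for CCT2, while CCT3 and TCP1 held 18.5 and 12.8% of input but 14.3 and 8.6% of footprints, all without overlap between the kinds of library. The differences of these 5 genes had the same signs in trametinib, at 7.17 points for CCT7, 4.61 for CCT5 and 2.73 for CCT2, where CCT3 held 28% of input and 18.8% of footprints, and TCP1 10.7 and 7.47%.

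In trametinib footprints CCT7 held 19.9, 19.6 and 19.6% against 17.8, 17.7 and 16.4% in DMSO. CCT3 held 19, 19.6 and 18% against 12.6, 15.1 and 15.2%, a difference of 4.58 points and again p = 0.1 in the exact permutation test, the smallest possible. Without DMSO footprint library 1, which had the lowest CCT3 share, the difference was 3.73 points. CCT5 went from 13.8 to 11.6%, CCT2 from 11.5 to 9.88%, CCT6A from 11.8 to 10.4% and CCT4 from 10.5 to 9.39% without overlap, and TCP1 (8.6 and 7.47%) and CCT8 (12.3 and 12.8%) had overlapping ranges. Without DMSO library 1 the DMSO means were 9.2% for TCP1 and 11.9% for CCT8, and neither then overlapped with trametinib. Without DMSO library 3 their DMSO means were 8.09 and 12.5%, and both still overlapped, so the separation of these genes rests on which libraries are used. The other DMSO means without library 1 were 10.9% for CCT2, 10.6% for CCT4, 13.3% for CCT5, 12% for CCT6A and 17% for CCT7, with the groups still apart.

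**Figure D3:**
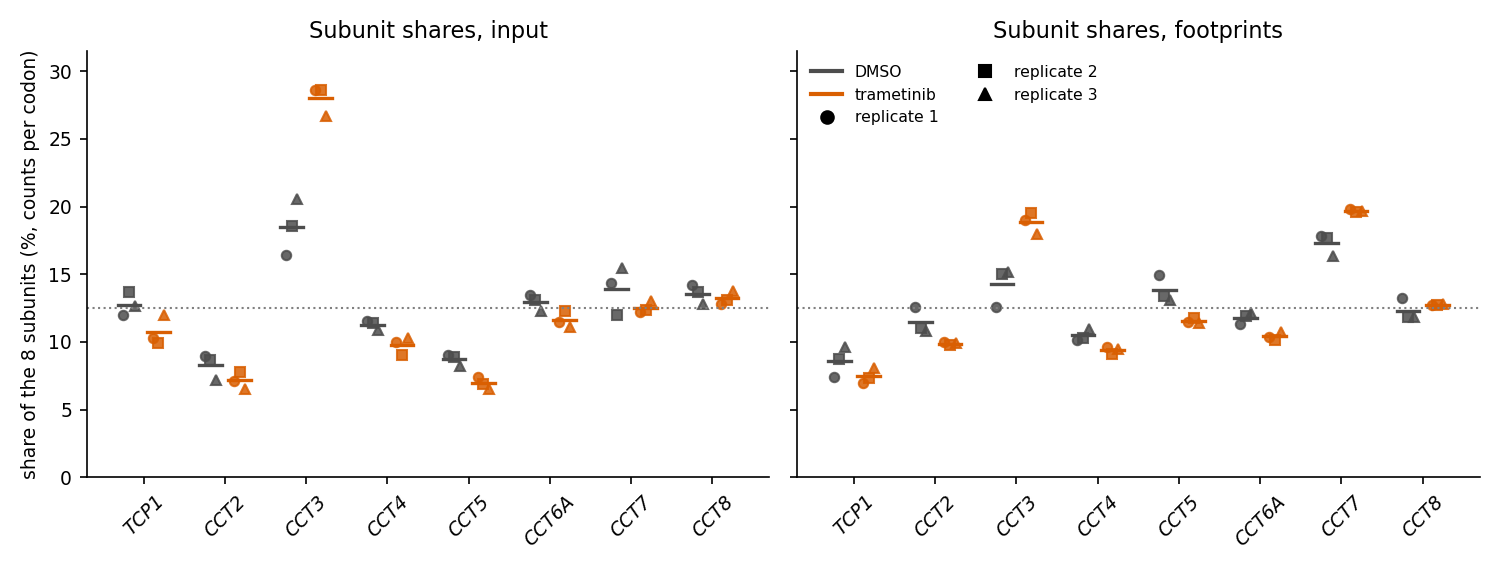
Share of each CCT subunit in the summed counts per codon of the 8 (vertical axis, percent) in input (left) and footprint libraries (right), with a symbol for each replicate number, bars at the group means (n = 3) and a dotted line at the even share of 12.5%. The mean share of CCT3 is 18.5% in DMSO and 28% in trametinib input, with 14.3 and 18.8% in footprints, and CCT7 leads in footprints under both treatments.

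How evenly the 8 were represented was summarised by the coefficient of variation (CV) of counts per codon across subunits in each library. It was 26.5% ± 6.4 (SD, n = 3) in DMSO input and 53.6% ± 2.3 in trametinib input. In footprints it was 21.9% ± 3.3 in DMSO and 35.7% ± 2.2 in trametinib. The treatment groups did not overlap in either kind, and without DMSO footprint library 1 the DMSO footprint CV was 20.4%. Without CCT3, the 7 remaining subunits had an input CV of 20.7% ± 3.8 in DMSO and 24.6% ± 3.2 in trametinib, with overlapping ranges. In footprints the same 7 were at 22.7% ± 4.5 and 34.0% ± 1.5, without overlap.

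The same measure was taken for 3 other complexes as a reference, with no test. The 6 subunits of the MCM helicase, which opens DNA for replication and holds its subunits in equal number, had mean CVs of 54.1 and 37.1% in DMSO and trametinib input and 38.4 and 45.7% in footprints. The 14 subunits of the 20S proteasome core lay between 71.2 and 77.1% in the 4 groups. PSMA1 and PSMA2 share 423 and 439 of their 780 and 699 reading frame windows of 30 bases with the reading frames of other genes, and reads of such sequence were not counted. Without these 2 the CV was 59.7 to 63.5%. PSMA6, which was kept, was the lowest of the 14 in input, and 71.7% of its reading frame windows are found in other transcripts. The 6 prefoldin subunits lay between 34.5 and 91.1%, and 73.3% of the reading frame windows of PFDN5 are found in other transcripts. The CCT subunits had the lowest mean CV of the 4 complexes in both groups of footprints and in DMSO input, whereas in trametinib input CCT lay above MCM and prefoldin.

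**Figure D4:**
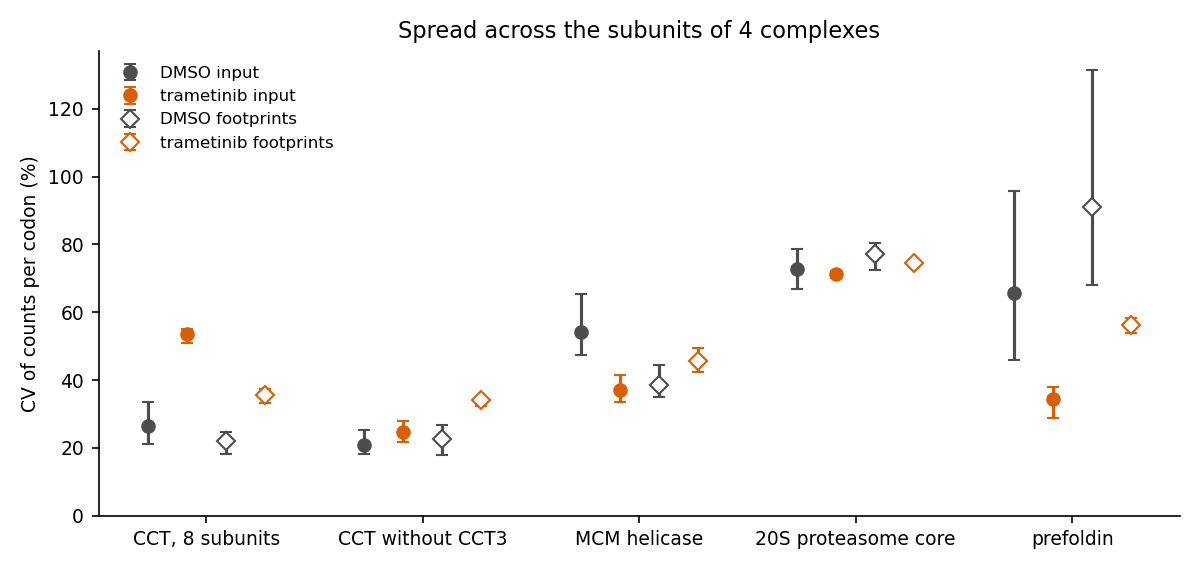
Coefficient of variation of counts per codon across the subunits of a complex (vertical axis, percent), as the mean of 3 libraries with bars from the lowest to the highest library, for CCT, CCT without CCT3, the MCM helicase, the 20S proteasome core and prefoldin. CCT is at 26.5% in DMSO and 53.6% in trametinib input, and at 20.7 and 24.6% when CCT3 is left out.

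The family has many processed pseudogenes. Of the 30-base windows of each reading frame, 36% in TCP1, 29.7% in CCT8, 28.6% in CCT6A, 18.2% in CCT5 and 8.63% in CCT7 also occur in transcripts of another gene, nearly all of them pseudogenes, against 1.55% in CCT4 and 0 in CCT2 and CCT3. None of the windows occurs in the reading frame of another gene, and whether reads that also match a pseudogene transcript were kept is not given in the sources used here. How many reads were affected was not tested. Counts without any length correction gave nearly the same difference for CCT3 in input, 9.5 points. The reading frames are of nearly the same length, so this value was bound to be close and does not bear on the shared windows. On the opposite strand, exons of ACAT2 cover 65 coding bases of TCP1, and exons of long non-coding RNAs cover 12 and 181 coding bases of CCT4, 125 of CCT5 and 85 of CCT8.

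As a group the 8 genes made up 0.622% ± 0.074 (SD, n = 3) of the DMSO input reads and 0.434% ± 0.014 of the trametinib input reads. In footprints they made up 0.618, 0.808 and 0.946% in the 3 DMSO libraries and 0.557, 0.531 and 0.579% in the 3 trametinib libraries. In both kinds all trametinib libraries were below all DMSO libraries, although DMSO footprint library 1 was close to them. The DMSO footprint mean was 0.877% without library 1 and 0.713% without library 3. Per codon, each of the 8 ranked high among 10538 genes with a known coding length, from the 93.2nd percentile (TCP1 in trametinib footprints) to the 98.6th (CCT3 in trametinib input).

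The level of ribosome density was then compared among the subunits. The log2 ratio of footprint to input CPM, taken between libraries of the same treatment and number, was highest in DMSO for CCT5 (1.02, 0.95 and 1.44), followed by CCT2 (0.78, 0.71 and 1.35) and CCT7 (0.61, 0.92 and 0.85). On the same scale the median of all tested genes was 0.0073, and CCT5 was at the 89.9th percentile of genes. CCT4, CCT6A and CCT8 formed a middle group with means of 0.37, 0.34 and 0.34. CCT3 had a mean of 0.10 and TCP1 of -0.10, at the 53.6th and 45.5th percentiles.

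Replicate 3 lay above replicates 1 and 2 in DMSO for all but CCT7, and each pair of neighbours in the DMSO order overlapped in range. Without dish 1 the DMSO means of CCT5, CCT2 and CCT7 were 1.19, 1.03 and 0.88 and those of CCT3 and TCP1 0.19 and 0.05, and these 5 kept their places. Without dish 3 the means were 0.98 for CCT5, 0.75 for CCT2, 0.76 for CCT7, -0.017 for CCT3 and -0.34 for TCP1. CCT7 then passed CCT2, and CCT8 passed CCT4 and CCT6A. In trametinib the order began with CCT5 (1.13), CCT7 (1.05) and CCT2 (0.86), went on with CCT8 (0.34), CCT4 (0.34) and CCT6A (0.24), and closed with TCP1 (-0.13) and CCT3 (-0.18). There the steps from CCT2 to CCT8 and from CCT6A to TCP1 had no overlap in range, and the 3 sets so divided took the same places in the order of the DMSO means.

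**Figure D5:**
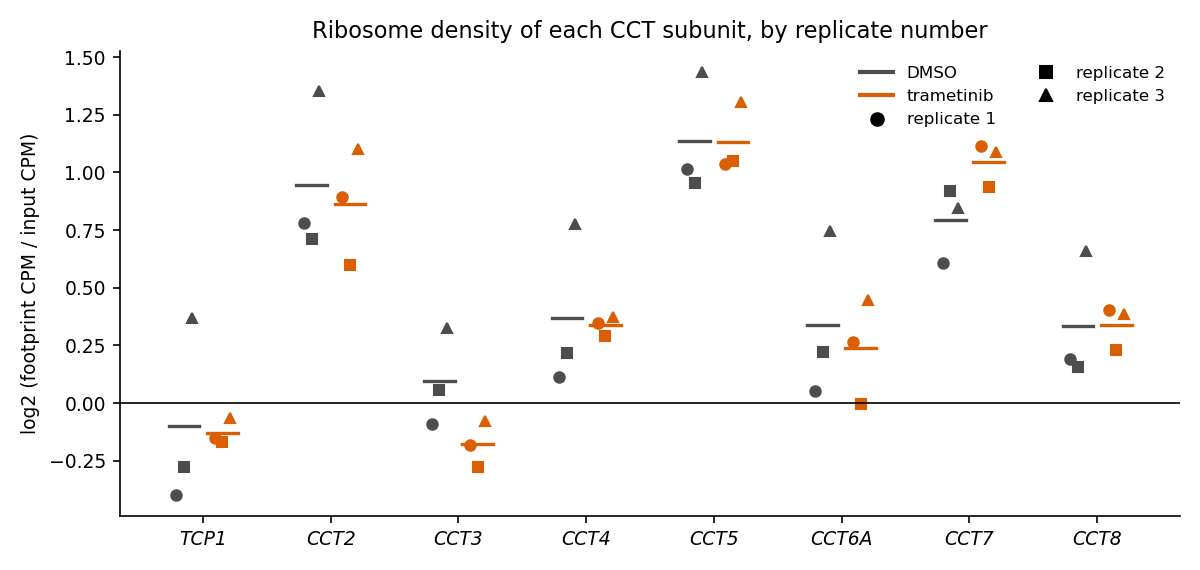
Log2 ratio of footprint CPM to input CPM (vertical axis) of each CCT subunit in DMSO and trametinib, with a symbol for each replicate number and bars at the means (n = 3). CCT5, CCT2 and CCT7 have means of 0.79 to 1.13, and TCP1 and CCT3 lie near 0, under both treatments.

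The genes that work with CCT were counted from lists of partners and clients. Among all tested genes 16.7% were lower and 15.4% higher in input, and 25.6% were lower and 23.9% higher in footprints, the shares against which the following counts are to be read. These shares moved when a library was left out. In input 11.5 to 18% of all tested genes were then lower and 10 to 16.6% higher. In footprints 18.9 to 30.5% were lower and 17.6 to 29.8% higher. Of 6 prefoldin subunits, 0 rose and 2 fell in input (median log2 change -0.26), and 4 fell in footprints, where the number was 1 without trametinib library 1 or 2 and 2 without DMSO library 3. The 2 were PFDN2 (log2 change in input -1.36, SE 0.32, adjusted p = 0.0062) and VBP1 (-0.72, SE 0.16, adjusted p = 0.0051). Of 4 tested cofactors PDCD5, which binds CCT, fell in input (-0.49, SE 0.16, adjusted p = 0.031), and 2 fell in footprints. With single input libraries left out, 0 to 2 of the cofactors fell in input, and 0 did when any of the trametinib replicates or DMSO replicate 2 was missing.

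Among chaperonin-like genes, HSPD1, the mitochondrial chaperonin, fell in input (-0.66, SE 0.16, adjusted p = 0.0086), as did MKKS, a CCT-related protein of the BBSome assembly pathway, from 37.7 ± 9.7 to 18.7 ± 3.4 CPM (SD, n = 3 each; adjusted p = 0.0066, edgeR). BBS12 of the same pathway, at a mean of 9.35 CPM in DMSO input, rose (0.93, SE 0.28, adjusted p = 0.021, edgeR). This call was lost on leaving out DMSO input replicate 3 or trametinib input replicate 1 or 3. CCT6B, the testis paralog of CCT6A, was not tested, with 10, 1 and 4 counts in DMSO input and 4, 1 and 1 in trametinib input.

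Of the clients in the actin and tubulin families, 8 of 12 tested genes were lower in input and 11 of 12 in footprints, with 0 higher, beside 16.7 and 25.6% lower among all tested genes, and the median log2 changes were -0.92 and -1.48. With 1 library left out, 5 to 8 were lower in input and 8 to 12 in footprints. The 5 were those without trametinib input replicate 1 or 2, when 12.3 and 11.5% of all tested genes were lower. The largest changes in input were in tubulins. TUBA1B fell from 452 ± 139 CPM to 72.6 ± 8.2 (SD, n = 3 each), a log2 change of -2.63 (SE 0.22, adjusted p = 2.3e-06, edgeR). TUBA1C changed by -2.03, TUBB4B went from 499 ± 180 to 123 ± 17.7 CPM, and the changes were -1.79 for TUBG1, the γ-tubulin of microtubule nucleation, and -1.63 for TUBB. Reads in sequence shared between reading frames were not counted. Of the 30-base windows of the reading frame, 1058 of 1324 in TUBA1B, 956 of 1544 in TUBA1C, 585 of 1488 in TUBG1, 268 of 1306 in TUBB4B and 16 of 1305 in TUBB also lie in that of another gene.

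Of 18 tested WD-repeat clients, 2 rose and 2 fell in input, and 2 rose and 4 fell in footprints, with a median input change of -0.04. These counts are below the shares of all tested genes in both kinds and directions. With 1 input library left out, 0 to 3 rose and 2 or 3 fell, and with 1 footprint library left out, 1 to 3 rose and 3 to 6 fell. CDC20, the mitotic activator of the anaphase-promoting complex, fell by 3.57 on the log2 scale (SE 0.25, adjusted p = 4.4e-07, edgeR) and BUB3, of the spindle checkpoint, by 1.15. COPB2 of the COPI coat rose by 0.54 and GNB2, a G protein β subunit, by 0.40. RACK1, a β-propeller on the small ribosomal subunit, was the single one of these with a changed ribosome density, at -0.93 (SE 0.17, adjusted p = 0.013, edgeR).

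The list of cytosolic chaperones around the HSP70 and HSP90 systems also held HSF1, a transcription factor, and HSPB1. Of its 10 tested genes, 1 rose and 4 fell in input, beside 15.4 and 16.7% of all tested genes, with a median of -0.35. In footprints 1 rose and 5 fell, beside 23.9 and 25.6%. The number lower was 8 without DMSO footprint library 1, beside 30.5%, and 4 on leaving out any other single footprint library. With single input libraries left out, 3 to 5 fell in input. The gene that rose in input was HSPB1, a small heat shock protein outside these systems (1.72, SE 0.32, adjusted p = 0.0015, edgeR). HSPH1 fell by 1.09, DNAJB1 by 0.91, HSP90AA1 by 0.88 and STIP1, which links HSP70 to HSP90, by 0.71. Of the complexes used as reference, all 6 MCM subunits fell in input and in footprints, with median log2 changes of -2.42 and -2.89. In input 2 of 14 proteasome core subunits fell, near the 16.7% of all tested genes: PSMB2 (-0.84, SE 0.17, adjusted p = 0.0020) and PSMB6 (-0.56, SE 0.18, adjusted p = 0.032). In footprints 9 of the 14 proteasome subunits fell, beside 25.6% of all tested genes. The number was 13 without DMSO library 1, beside 30.5%, and 5 without trametinib library 1 or 2, beside 18.9 and 19.1%. With single input libraries left out, 1 to 4 of them fell in input, the 4 being those without DMSO replicate 1, beside 18% of all tested genes.

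Across the 12 libraries, with log2 CPM centred within input and within footprints, 7 subunits followed each other closely. Pearson's r of each with the mean of the other 7 was 0.993 for CCT6A, 0.990 for CCT4, 0.988 for CCT8, 0.976 for TCP1, 0.964 for CCT5, 0.948 for CCT2 and 0.919 for CCT7, but 0.412 for CCT3. Among 10656 genes ranked by r with the same mean, CCT4, CCT6A and CCT8 each came 1st. TCP1 came 27th, CCT5 51st, CCT2 168th, CCT7 479th and CCT3 3675th, so many genes outside the complex followed it as closely as CCT2 and CCT7 did. The genes most like the mean of the 8 were PSMD13 and PSMD14 of the proteasome lid (0.983 each), GMNN, the licensing inhibitor geminin (0.983), SFPQ, an RNA-binding splicing factor (0.982), and FUBP1, a nucleic acid binding regulator of MYC (0.981). These correlations describe 12 points that share the treatment difference and the library scaling, and DMSO footprint library 1 is one of them.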

How the data were processed

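Ribosome footprints and input of HCT116 cells were counted by the authors, who removed adapters, discarded reads that matched rRNA or tRNA with Bowtie 1.2.2, mapped the rest to the basic Gencode set (GRCh38 gene models) and kept reads inside reading frames of a single gene symbol. The deposited table holds these raw counts for 12 libraries, a normalised signal, which in 12 of 12 libraries is the deposited count divided by a median-of-ratios size factor, and fold changes and adjusted p-values from DESeq2 1.46.0, which were not used. No column of another sample was present (0 unused). The counts cover reading frames only, so that other parts of an mRNA are not seen, and scaling between libraries hides a change common to all mRNAs.

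All tests started from the raw counts. A gene had to reach 10 counts in 3 or more input libraries, and was then examined with the quasi-likelihood test of edgeR 4.0.16 (R 4.3.3, TMM scaling), within the 6 libraries of a kind for input and footprints and as an interaction over 12 libraries for density. The Benjamini-Hochberg adjustment ran over all 10663 genes, with a threshold of 0.05, and SEs were derived from the F statistic. The script was tested on simulated counts. Coding lengths and genome positions came from MANE Select transcripts of Gencode v44 in place of the RefSeq proteins first planned. The alternatives were other scalings, DESeq2 1.42.0, limma 3.58.1 with a prior count of 2, other filters, replicate blocks and leaving out single libraries.

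The members and the gene lists were chosen with earlier results of these data known. All 8 members are named. From other lists up to 5 genes are named, first those past the threshold for density and then those with the largest input change past it. Groups and replicate numbers came from the labels, which call the replicates biological without giving separate cultures, so p-values measure the spread between these samples. Input and footprints came from the same lysates per the methods of the study, and libraries of the same number were taken as such a pair. Across 4879 genes with a mean of at least 40 CPM, the members of a pair deviated from their means with a Pearson's r of 0.850, 0.193 and 0.364 for DMSO pairs and of 0.170, 0.0705 and -0.140 for trametinib pairs.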

Additional observations from a re-analysis of the deposited data

Results flagged for a closer look

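Of the genes named above, RACK1 had a treatment effect in footprints that differed from that in input by the test of the interaction, with a density change of -0.93 on the log2 scale (SE 0.17, adjusted p = 0.013, edgeR). Its input was 2119 ± 175 CPM in DMSO and 2496 ± 112 in trametinib (SD, n = 3 each), and its footprints were 1781 ± 148 and 1098 ± 80.7 CPM. No CCT subunit showed such a difference at this threshold.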

How the results depend on the processing

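In input, the same 7 subunits were called under 12 of 13 alternatives, and CCT8 missed the threshold without trametinib input replicate 1 (adjusted p = 0.052, edgeR); CCT3 was between -0.055 and 0.16 on the log2 scale when a library was left out. In footprints, 6 to 8 subunits were called when a library was left out, and CCT3 was between -0.51 and -0.092. Scaling by library totals moved the median footprint change of all tested genes by 0.18, gave 1951 genes lower and 3570 higher against 2727 and 2545, and left 6 subunits called.

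No subunit passed for ribosome density under any of the 21 alternatives. With library totals the estimates were 0.0397 for TCP1, 0.016 for CCT2, 0.05 for CCT4, 0.0941 for CCT5 and 0.10 for CCT8. CCT8 was at 0.0043 with limma. With single libraries left out the ranges were -0.29 to 0.19 for TCP1, -0.21 to 0.0253 for CCT2, -0.21 to 0.15 for CCT4, -0.11 to 0.11 for CCT5, -0.29 to 0.0574 for CCT6A, -0.10 to 0.13 for CCT8, -0.52 to -0.097 for CCT3 and 0.12 to 0.36 for CCT7. Over all tested genes, 10 were higher in density in the main test, and this number was 5 with median-of-ratios size factors, 27 with library totals, 37 with DESeq2 (and 150 lower against 87), 6 with the filter on libraries of either kind, 21 without DMSO dish 1 (an alternative chosen after seeing the data) and 1 to 12 with single libraries left out. Genes higher in input numbered 1069 to 1767 with single libraries left out, against 1641.

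With the replicate number as a block, pairing same-numbered libraries, the density change of CCT8 was 0.0050, and with a block for each dish it was 0.0049 and 31 genes were higher in density. Neither block changed the call of a subunit.

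The treatment difference in the CCT3 share was 3.73 to 5.03 points in footprints with single libraries left out. The counts in the gene lists with a library left out, and the density levels and shares without a DMSO dish, were added after seeing the data. When each subunit was left out in turn, the CV ranged from 24.6 to 58.3% in trametinib input, from 17.7 to 23.5% in DMSO footprints and from 31.9 to 38.7% in trametinib footprints, and the lowest input value was that without CCT3. With 3 libraries a group, no exact test of a share can pass 0.05.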
